A study of Mus musculus with 12 samples.

Results

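The small heat shock proteins are represented by 5 genes, Cryab, Hspb1, Hspb2, Hspb6 and Hspb8, which were picked by symbol from the 52015 genes with usable values. A level of 0.5 FPKM or more in any group was reached by 4 of the 5 genes and by 13414 of all genes, and Hspb8 did not reach it. RNA-seq was performed on 12 samples of mpkCCD, a line of mouse cortical collecting duct cells. The cells carried either a CRISPR/Cas9 deletion of Nfat5 (Nfat5-KO, clones N1 and N3) or a scramble guide RNA with no target (Scr), and were kept for 5 days in isotonic medium of 300 mosmol/kg or in hypertonic medium of 600 mosmol/kg made with 100 mM NaCl and 100 mM urea. There were 2 libraries of each Scr group (Scr_300 and Scr_600) and 4 of each Nfat5-KO group (Nfat5-KO_300 and Nfat5-KO_600), all from the same line. FPKM counts fragments relative to the exon length of a gene and to sequencing depth, so that the levels of genes can be compared with each other. The authors' table holds 1 value per gene and group.

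Small heat shock proteins are chaperones that bind unfolding proteins without using ATP and hold them until the ATP-dependent chaperones take over. They share an alpha-crystallin domain and assemble into large oligomers of one or several members. Salt raises the ionic strength inside cells and urea destabilises proteins, and cells of the renal medulla are known for high levels of Cryab and Hspb1. NFAT5 is the transcription factor that turns on osmoprotective genes in hypertonic medium, whereas heat shock factors drive most chaperone genes after heat.

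Each deposited value was found to be the mean of its libraries, and the step that 1 counted read is worth in each library could be read from the low values. The whole reads of both Scr libraries were solved in this way for the members. The libraries of a group are called the shallower and the deeper one, because the values do not say which culture is which. The reads solved over genes numbered 20450094 and 22697700 in the Scr_300 libraries and 21784450 and 23109506 in the Scr_600 libraries. The Nfat5-KO means rest on 4 libraries and were solved only for genes with few reads, so that those groups have no spread here for the expressed members. A difference between an Nfat5-KO group and another group was therefore not tested. The study's methods call the libraries of a condition biological replicates, and the labels do not say whether the Scr cultures were grown apart, so the spread between them may be technical. In bulk RNA, fewer cells with a transcript and less of it per cell cannot be told apart.

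Nfat5 itself stood at 5.61 FPKM in Scr_300 and 7.93 FPKM in Scr_600, against 3.47 and 6.88 FPKM in the Nfat5-KO groups at 300 and 600 mosmol/kg. These values cover all exons of the gene and do not check the deleted part. Of 14 principal cell markers, 8 reached 0.5 FPKM in a group, and the keratin genes Krt8 and Krt18 were high (188 to 374.8 FPKM and 469 to 738 FPKM). Aqp2, the water channel that defines principal cells, was listed at 0 FPKM in Scr_300 and reached at most 0.245 FPKM. Of the 8 markers, 4 were at least 2-fold higher in Nfat5-KO_600 than in Scr_600 (median log2 ratio 0.76), namely Hsd11b2 (3.06), Gata3 (2.77), Scnn1a (2.34) and Tfcp2l1 (1.08). In isotonic medium 2 of the 8 were (Hsd11b2 with 2.09 and Gata3 with 1.765), and the median was 0.26. The 14 markers summed to 1239 and 886 FPKM in the Scr groups and 1207 and 841 FPKM in the Nfat5-KO groups at 300 and 600 mosmol/kg. None of 8 muscle markers, 8 stromal, endothelial and leukocyte markers or 5 intercalated cell markers had 0.5 FPKM in a group, and the muscle markers summed to 0.602 to 1.14 FPKM. Actc1, Foxi1 and Atp6v0d2 were at 0 in all groups. The part of the markers that differ between genotypes in the results was not tested.

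Cryab and Hspb1 made up nearly all small heat shock transcripts in every group. The level of Cryab, which encodes alpha-B-crystallin, was 143.6 FPKM in Scr_300 and 255.8 FPKM in Scr_600, against 148.6 and 156.9 FPKM in the Nfat5-KO groups at 300 and 600 mosmol/kg. The level of Hspb1, which encodes a chaperone that also binds actin filaments, was 249.02 FPKM in Scr_300 and 99.3 FPKM in Scr_600, against 221.8 and 63.9 FPKM in the Nfat5-KO groups at 300 and 600 mosmol/kg. Both genes were above 96.0% of the expressed genes in every group. In Scr cells Cryab had the higher level in hypertonic medium and Hspb1 the lower one. Together with 6 further genes of the family, the 5 members summed to 406 FPKM in Scr_300 and 373 FPKM in Scr_600, against 382 and 238 FPKM in the Nfat5-KO groups at 300 and 600 mosmol/kg. Cryab and Hspb1 held 96.8%, 95.1%, 96.9% and 92.6% of these sums.

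**Figure D1:**
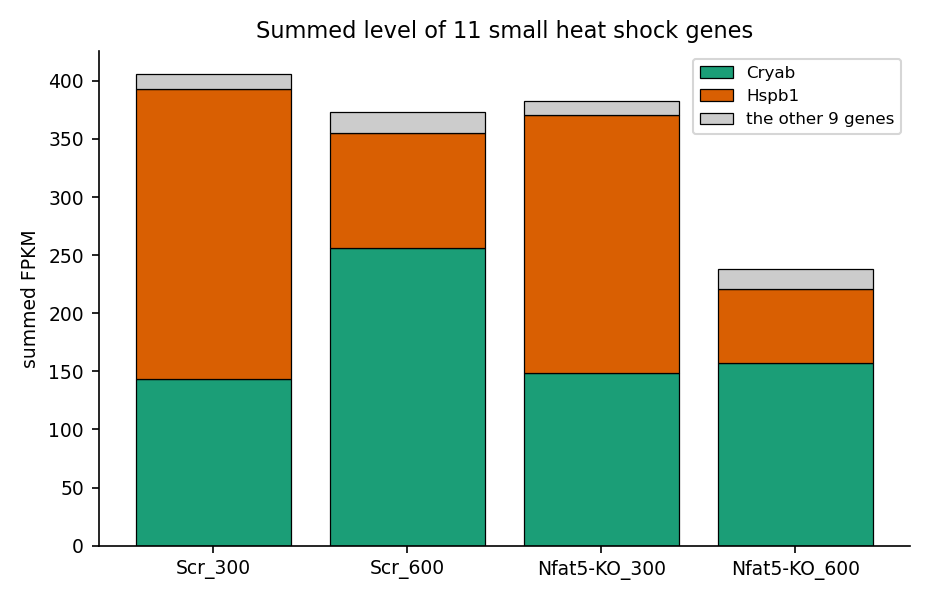
Stacked bars give the summed FPKM of 11 small heat shock genes in the 4 groups, split into Cryab, Hspb1 and the other 9 genes. The sum is lowest in Nfat5-KO_600 (238 FPKM), and Cryab takes the larger share in both hypertonic groups.

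The balance between both genes turned over with tonicity. Cryab stood at 0.577 times the level of Hspb1 in Scr_300 and at 2.58 times that level in Scr_600. In the Nfat5-KO cells the same ratio of levels was 0.670 in isotonic and 2.46 in hypertonic medium. The share of Cryab in the summed level was 35.4% in Scr_300, 68.5% in Scr_600, 38.9% in Nfat5-KO_300 and 65.8% in Nfat5-KO_600. The lower sum in Nfat5-KO_600 than in Scr_600 thus went with lower levels of both genes at a similar ratio.

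Hspb2 and Hspb6 were expressed at moderate levels, above 41.3% to 61.9% of the expressed genes. Hspb2, a small heat shock protein of muscle that binds the myotonic dystrophy kinase, stood at 4.63 FPKM in Scr_300 and 8.78 FPKM in Scr_600, against 3.90 and 5.22 FPKM in the Nfat5-KO groups at 300 and 600 mosmol/kg. Hspb6, a target of cyclic-nucleotide-dependent kinases, stood at 5.01 FPKM in Scr_300 and 6.04 FPKM in Scr_600, against 4.68 and 8.29 FPKM in the Nfat5-KO groups at 300 and 600 mosmol/kg. Hspb2 was highest in Scr_600, as was Cryab, and Hspb6 was highest in Nfat5-KO_600.

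Hspb8, the partner of BAG3 in the selective removal of misfolded proteins, was near absent. No read was counted in any of the 4 Scr libraries, which allows up to 0.0227 FPKM over Scr_300 and 0.0213 FPKM over Scr_600, taking 3 reads over a group as the limit that a count of 0 allows. In Nfat5-KO_300 there were 2 reads, both in 1 library (0.00831 FPKM), and in Nfat5-KO_600 there were 5 reads, 4 in one library and 1 in another (0.0191 FPKM). Limits of this kind cover counting error only. Both Nfat5-KO means lie below the limits for 0 reads in Scr, and no ratio is given.

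**Figure D2:**
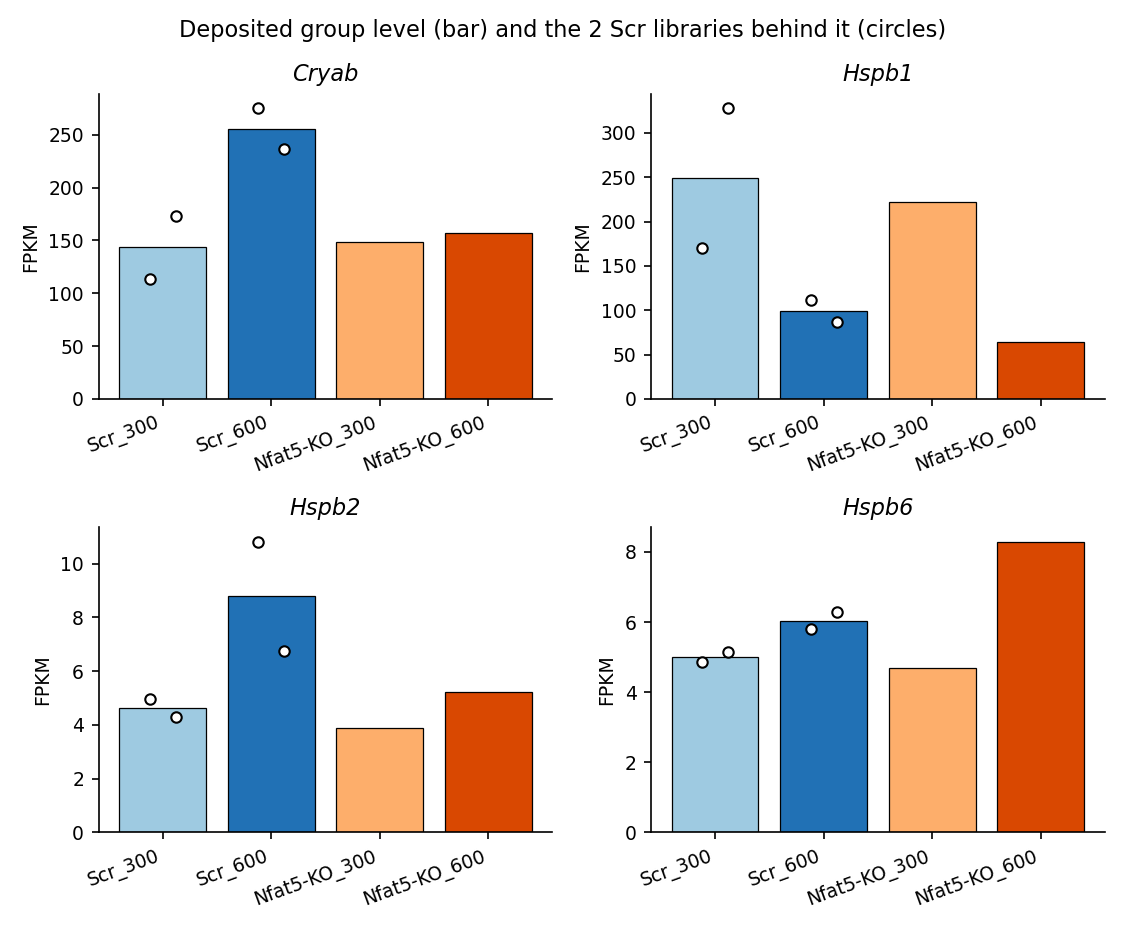
Bars show the deposited level in FPKM of Cryab, Hspb1, Hspb2 and Hspb6 in each group, and circles show the 2 Scr libraries behind a Scr bar (no library values for the Nfat5-KO bars). The Scr_300 libraries of Hspb1 lie far apart (170.0 and 328 FPKM), whereas those of Hspb6 lie close together (4.86 and 5.16 FPKM).

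The question of how Scr cells respond to hypertonicity was addressed by comparing Scr_600 with Scr_300. Cryab was 1.78-fold and Hspb2 1.88-fold higher in Scr_600, Hspb6 was 1.202-fold higher, and Hspb1 was 2.51-fold lower. For fold changes, 0.1 FPKM was added to each value. A 2-fold change was reached by 1 of the 4 expressed members, Hspb1, against 2.86% of the 12929 genes tested that were at least 2-fold lower and 4.81% that were at least 2-fold higher. The log2 ratio was 0.83 for Cryab, 0.91 for Hspb2, 0.265 for Hspb6 and -1.33 for Hspb1, beside a median of -0.041 over all genes tested. Cryab stood above 93.8% of all genes tested in this ratio, Hspb2 above 94.5% and Hspb6 above 77.2%, and Hspb1 stood below 98.4% of them. Scaling both groups to the same FPKM sum moved the median of all genes by 0.1285, and under it Hspb2 passed 2-fold (log2 ratio 1.05).

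In the single libraries, Cryab had 114 FPKM in the shallower and 173.5 FPKM in the deeper Scr_300 library, and 275.2 FPKM and 236.5 FPKM in the Scr_600 libraries. Both hypertonic libraries of Cryab were thus above both isotonic ones. Hspb1 had 170.0 FPKM in the shallower and 328 FPKM in the deeper Scr_300 library, and 112 FPKM and 87.0 FPKM in Scr_600. Both hypertonic libraries of Hspb1 were below both isotonic ones. Hspb2 had 4.95 and 4.30 FPKM in Scr_300 (132 and 129 reads) and 10.8 and 6.75 FPKM in Scr_600 (317 and 209 reads). Hspb6 had 4.86 and 5.16 FPKM in Scr_300 (357 and 426 reads) and 5.79 and 6.28 FPKM in Scr_600 (468 and 536 reads). For all 4 expressed members the groups did not overlap.

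This is a weak statement with 2 libraries against 2. Of the 11919 genes with solved libraries, 23.6% had both hypertonic libraries above both isotonic ones, and 31.9% had both below. In limma, which pools the spread over all genes, 0.931% of these genes were higher and 0.612% lower at an adjusted p under 0.05, and 0 of the 4 members were among them. At an unadjusted p under 0.05 there were 3 of the 4 members (Cryab, Hspb1 and Hspb2) and 2644 of all genes (22.2%). The limma log2 ratio, taken over the log values of the libraries, was 0.86 with a standard error of 0.24 for Cryab (adjusted p = 0.138) and 0.87 with a standard error of 0.24 for Hspb2 (limma adjusted p = 0.140). For Hspb1 it was -1.26 with a standard error of 0.33 (limma adjusted p = 0.130), and for Hspb6 0.26 with a standard error of 0.13 (limma adjusted p = 0.307). None of the members passed the test at this size of the groups.

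The Scr_300 libraries lay far apart for both abundant genes, and which of them is unusual cannot be told. The level in the deeper library was 1.53 times that of the shallower one for Cryab and 1.93 times for Hspb1. At the median of all genes, the larger of both values was 1.13 times the smaller. A smaller gap between the Scr_300 libraries was found for 89.0% of the genes in the case of Cryab and for 94.4% in the case of Hspb1. Without the deeper Scr_300 library, Hspb1 was 1.71-fold lower in Scr_600 and no longer reached 2-fold, and Cryab was 2.25-fold higher and did. Without the shallower Scr_300 library, Hspb1 was 3.30-fold lower and Cryab 1.47-fold higher. The part of either library in the result was not tested beyond these values.

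Hspb1, Hspb6 and Hspb8 had promoter sequences in the RefSeq set used for GRCm38.p6 (250 bases before to 50 bases after a start), 4 in all, since Hspb6 has 2 starts. That set held no entry for Cryab and Hspb2, so their promoters were not searched. Motif matches are shown for these 3 genes, which differ widely in level. The 8 letters GAANNTTC, 2 inverted repeats of the unit that heat shock factors bind and the same on both strands, were found in 7.86% of 32851 promoters. Each of the 3 genes held such a match with the same letters, printed in capitals in windows of 30 bases:
Hspb1, chr5:135887791-135887820, plus strand: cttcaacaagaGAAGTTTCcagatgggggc
Hspb6, chr7:30553170-30553199, plus strand: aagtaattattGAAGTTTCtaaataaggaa
Hspb8, chr5:116422844-116422873, minus strand: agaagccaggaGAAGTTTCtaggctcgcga
The match began 117 bases before the start of Hspb1, 120 bases before the downstream start of Hspb6 and at base 3 of Hspb8. Hspb1 had another match 97 bases before its start, with other inner letters:
Hspb1, chr5:135887811-135887840, plus strand: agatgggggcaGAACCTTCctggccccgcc
The consensus of the tonicity-responsive enhancer, the site that NFAT5 binds, was searched on both strands and was found in 4.96% of the promoters. Among the 4 promoters it matched only that of Hspb1, on the minus strand and across the first of the heat shock matches:
Hspb1, chr5:135887792-135887821, plus strand: ttcaacaagAGAAGTTTCCAgatgggggca
Its first 6 letters, TGGAAA, alone were found in 21.4% of the promoters, among them those of both Hspb6 starts. Thus Hspb8, with next to no reads, and Hspb1, among the most abundant transcripts, held the same 8 letters. A match of letters is not a binding site.

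Cryab and Hspb2 lie head to head on chromosome 9. In GENCODE M21, Cryab spans chr9:50751325-50756636 on the plus strand and Hspb2 chr9:50751078-50752354 on the minus strand, and their exons share 252 bases. This is 17.0% of the exon bases of Cryab and 30.2% of those of Hspb2. Whether reads were counted with regard to strand is not given in the sources used here, so reads from these bases cannot be assigned to either gene with certainty. The level of Cryab was 31.0 times that of Hspb2 in Scr_300, 29.1 times in Scr_600, 38.1 times in Nfat5-KO_300 and 30.1 times in Nfat5-KO_600. How much of the Hspb2 level came from Cryab reads was not tested.

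**Figure D3:**
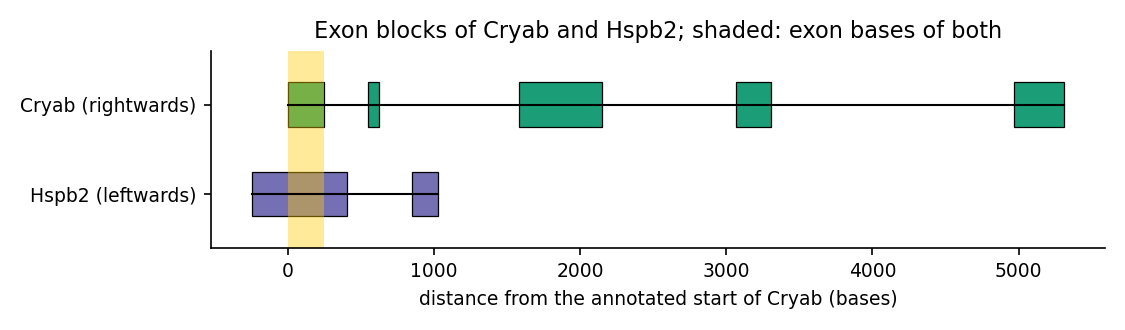
Exon blocks of Cryab and Hspb2 (boxes, any annotated transcript) are drawn to scale against the distance in bases from the annotated start of Cryab. The shaded stretch marks the 252 bases that are exonic in both genes, in the first block of Cryab and the larger block of Hspb2.

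Of the 5 other genes within 50 kb of the pair, 2 were highest in Scr_600, as Cryab and Hspb2 were. The share of all genes that were highest in Scr_600 was not counted. 2310030G06Rik had 4.13, 5.08, 4.49 and 3.93 FPKM in the order Scr_300, Scr_600, Nfat5-KO_300, Nfat5-KO_600. Dixdc1, a Wnt pathway gene, had 0.373, 0.673, 0.229 and 0.555 FPKM, whereas Alg9, a mannosyltransferase gene, had 6.47, 5.51, 7.16 and 3.83 FPKM. Unlike Cryab, Dixdc1 had a larger log2 response in Nfat5-KO cells (0.995) than in Scr cells (0.709). Alg9 was highest in Nfat5-KO_300, and the remaining 2 were also highest in Nfat5-KO cells, 1110032A03Rik at 600 mosmol/kg (0.939 FPKM) and Fdxacb1 at 300 mosmol/kg (0.898 FPKM). Hspb1 (chr5:135887919-135889563) has 5 genes within 50 kb, of which 3 stayed below 0.01 FPKM. The processed pseudogene Gm42533, 6.77 kb away, had 1.13, 0.444, 0.510 and 0.182 FPKM in that order, so that it was lower in hypertonic medium in both genotypes (log2 ratios of -1.18 and -1.11), as Hspb1 was. Ywhag, a 14-3-3 protein gene 18.8 kb away, had 53.3, 53.7, 69.6 and 54.3 FPKM. Hspb6 (chr7:30552178-30555443) shares 122 exon bases with Proser3 and 3 with Lin37 on the other strand. Lin37, a subunit of a cell cycle repressor complex, had 6.40, 8.97, 5.92 and 10.7 FPKM and Proser3 1.78, 2.49, 1.29 and 2.77 FPKM. Both had the same order of groups as Hspb6, and so did Arhgap33, 17.1 kb away. The other genes within 50 kb that reached 0.5 FPKM, Psenen, Kmt2b, Zbtb32 and Upk1a, had other orders. Psenen, for example, had 33.6, 36.1, 29.2 and 30.2 FPKM and was highest in Scr_600. The share of all genes with the order of Hspb6 was not counted. Hspb8 (chr5:116408491-116422864) lies among 5 annotated genes that were all at 0.

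The question of how Nfat5-KO cells respond to hypertonicity was addressed by comparing Nfat5-KO_600 with Nfat5-KO_300. Hspb1 was 3.47-fold lower in hypertonic medium, Hspb6 was 1.76-fold higher and Hspb2 1.33-fold higher, and Cryab differed by 1.06-fold. The log2 ratio was -1.795 for Hspb1, 0.81 for Hspb6, 0.41 for Hspb2 and 0.079 for Cryab, beside a median of -0.040 over 12982 genes. Hspb1, again, was the 1 of 4 members past 2-fold, and 4.11% of the genes tested were at least 2-fold lower and 6.25% at least 2-fold higher. Hspb1 stood below 99.3% of all genes in this ratio. Scaling every group to the same FPKM sum moved the median of all genes by 0.24, and under it the ratio of Hspb6 was 1.06 and past 2-fold and that of Cryab 0.32.

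**Figure D4:**
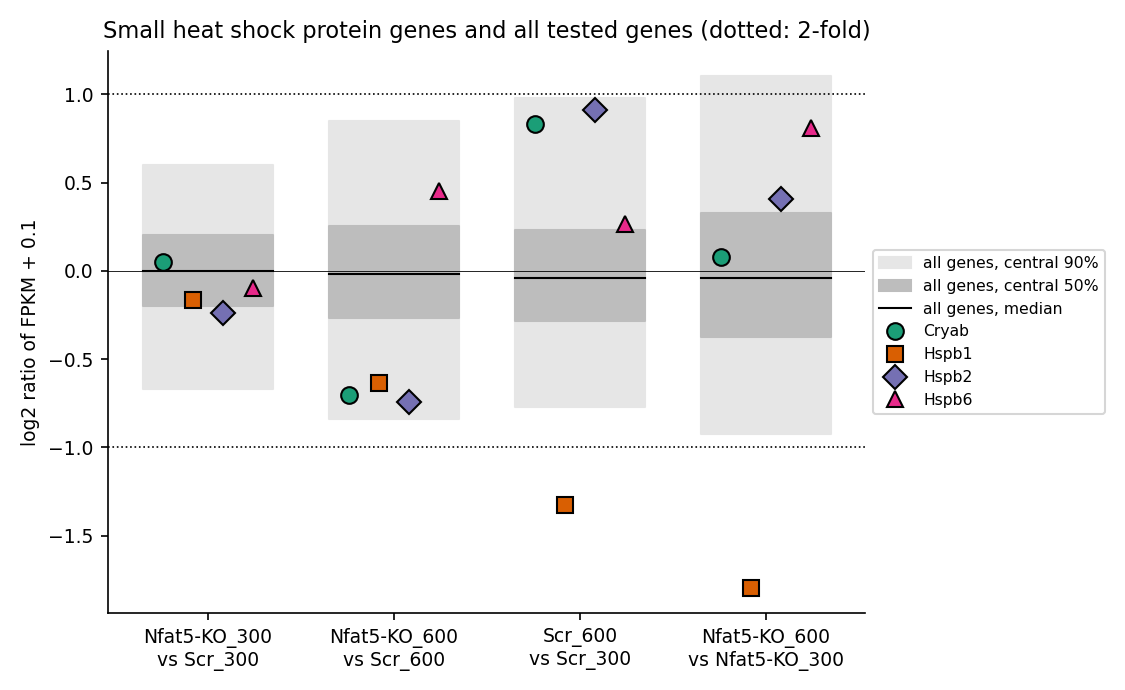
Points give the log2 ratio of FPKM + 0.1 of the 4 expressed members in the 4 comparisons, over grey boxes for the central 50% and 90% of all genes tested and a line at their median. Hspb1 lies below the central 90% in both hypertonic comparisons, and the other points lie inside it.

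In isotonic medium, the deposited levels of the expressed members differed little between the genotypes, and this difference was not tested. The paper names adaptation of the clones as a possible influence on its Nfat5-KO cells. It reports closely similar profiles of its independent clones, but does not fully exclude such effects. Comparing Nfat5-KO_300 with Scr_300, the log2 ratio was 0.049 for Cryab, -0.17 for Hspb1, -0.24 for Hspb2 and -0.095 for Hspb6, beside a median of -0.00147 over 12704 genes. No member reached 2-fold, as 1.73% of the genes did upwards and 2.44% downwards. The Nfat5-KO_300 levels of Cryab and Hspb1 lay between their Scr_300 libraries. Set against the shallower Scr_300 library alone, the log2 ratio was 0.39 for Cryab and 0.38 for Hspb1, and against the deeper one it was -0.22 and -0.56, so that neither direction held. The levels of Hspb2 and Hspb6 in Nfat5-KO_300 were below both Scr_300 libraries, by log2 ratios of -0.14 to -0.34 and -0.052 to -0.14. The share of all genes outside the Scr_300 libraries was not counted. The range between them is narrow, since the larger value was 1.13 times the smaller at the median of all genes. The interval from counting error alone (95%, on the log2 ratio of the deposited values) was -0.47 to -0.022 for Hspb2, on 382 to 426 reads in Nfat5-KO_300, and -0.22 to 0.030 for Hspb6.

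In hypertonic medium, 3 of the 4 expressed members were lower in Nfat5-KO cells, as were 52.2% of all genes tested, and Hspb6 was higher. Comparing Nfat5-KO_600 with Scr_600, Cryab was 1.63-fold, Hspb2 1.67-fold and Hspb1 1.55-fold lower, and Hspb6 was 1.37-fold higher. The log2 ratios were -0.70 for Cryab, -0.74 for Hspb2, -0.64 for Hspb1 and 0.45 for Hspb6, beside a median of -0.020 over 13063 genes. None reached 2-fold, as 3.76% of the genes tested did upwards and 3.68% downwards. Cryab stood below 93.1% of all genes in this ratio, Hspb2 below 93.7% and Hspb1 below 91.8%, and Hspb6 stood above 85.8%. With the same FPKM sum, the log2 ratio was -0.58 for Cryab, -0.62 for Hspb2, -0.51 for Hspb1 and 0.58 for Hspb6. Under that scaling, 38.9% of all genes tested were lower in Nfat5-KO_600.

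The Nfat5-KO_600 levels of all 4 lay outside the range of the Scr_600 libraries, but the share of all genes that did so was not counted. That range is narrow, since the larger Scr_600 value was 1.165 times the smaller at the median of all genes. The central 50% of all genes had log2 ratios from -0.27 to 0.25 between the hypertonic groups. Against each Scr_600 library alone the log2 ratio was -0.59 and -0.81 for Cryab, -0.45 and -0.80 for Hspb1, -0.37 and -1.04 for Hspb2, and 0.40 and 0.51 for Hspb6. For Hspb2, the shallower Scr_600 library (10.8 FPKM) put the difference past 2-fold and the deeper one (6.75 FPKM) did not. The spread between the 4 Nfat5-KO_600 libraries and between clones N1 and N3 is not part of these values, so whether the differences exceed it was not tested. Of 8 principal cell markers, 4 (Hsd11b2, Gata3, Scnn1a and Tfcp2l1) were at least 2-fold higher in the same comparison. The log2 ratios of Aqp3 (0.43), Cdh1 (0.21), Krt8 (-0.38) and Krt18 (-0.19) were smaller in size and of both signs.

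Ordered by level, Cryab had Scr_300, Nfat5-KO_300 and Nfat5-KO_600 next to each other, all within the range of the Scr_300 libraries, and Scr_600 above them. For Hspb1 the order was Nfat5-KO_600, Scr_600, Nfat5-KO_300 and Scr_300, and the last 2 did not differ beyond the spread of the Scr_300 libraries. For Hspb2 it was Nfat5-KO_300, Scr_300, Nfat5-KO_600 and Scr_600, and for Hspb6 it was Nfat5-KO_300, Scr_300, Scr_600 and Nfat5-KO_600.

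Set side by side, the log2 response to hypertonicity of Cryab, Hspb2 and Hspb1 was below that of Scr cells when Nfat5 was deleted, and that of Hspb6 was above it. The log2 response of Cryab was 0.83 in Scr and 0.079 in Nfat5-KO cells, a difference of -0.75 that was below those of 94.7% of 13414 genes, whose median was -0.015. For Hspb2 it was 0.91 and 0.41 (difference -0.50) and for Hspb1 -1.33 and -1.795 (difference -0.47). For Hspb6 it was 0.265 and 0.81, a difference of 0.55 that was above that of 89.4% of the genes. When 1 Scr library was left out at a time, the difference ranged from -1.09 to -0.48 for Cryab, from -0.80 to -0.12 for Hspb2, from -1.02 to -0.071 for Hspb1 and from 0.49 to 0.61 for Hspb6. The sign held for all 4, and the size of the difference for Hspb1 rested on the Scr_300 libraries. The difference between the responses was not tested, since the Nfat5-KO groups have no spread here.

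**Figure D5:**
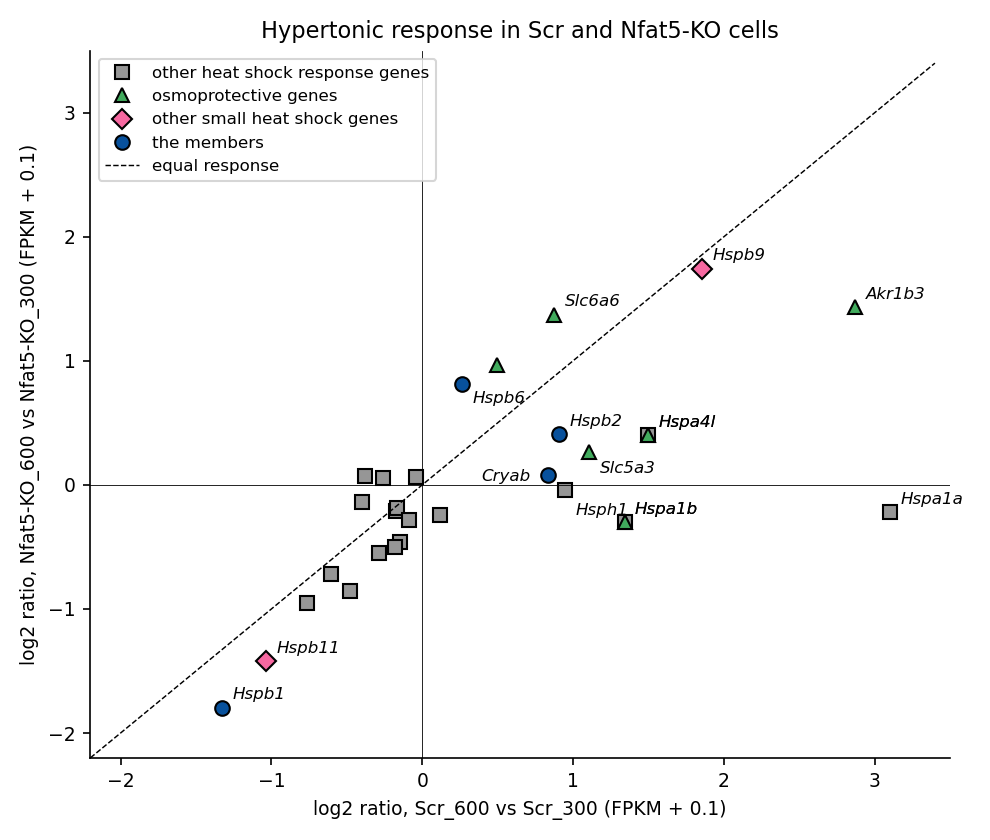
Each point is a gene, with its log2 response to hypertonicity in Scr cells on the x axis and in Nfat5-KO cells on the y axis (both FPKM + 0.1), and the dashed line marks equal responses. Cryab and Hspb2 lie below the line, as do, among others, the Hsp70-type genes Hsph1 and Hspa4l and the myo-inositol transporter gene Slc5a3. Hspb6 lies above the line, and Hspb1 lies low on both axes. Genes on 2 lists carry both symbols.

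Among 6 further genes of the small heat shock family, 2 reached 0.5 FPKM, and they went opposite ways. Hspb9, a testis-specific family member, stood at 0.441 FPKM in Scr_300 and 1.86 FPKM in Scr_600, against 0.844 and 3.06 FPKM in the Nfat5-KO groups at 300 and 600 mosmol/kg. It was 3.62-fold higher in hypertonic medium in Scr and 3.35-fold higher in Nfat5-KO cells, on 22 reads in Scr_300 and 98 in Scr_600. Hspb11, which carries the family name but is known as an intraflagellar transport protein, had 2.85, 1.34, 2.41 and 0.837 FPKM in the same order of groups. It was 2.05-fold lower in hypertonic medium in Scr cells, where it did not reach 2-fold with the same FPKM sum (log2 ratio -0.95), and 2.67-fold lower in Nfat5-KO cells. The limma adjusted p for Scr_600 against Scr_300 was 0.0732 for Hspb9 and 0.156 for Hspb11. Hspb3 had no read in any group, and Cryaa, Hspb7 and Odf1 stayed below 0.1 FPKM.

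Of the 5 heat shock factor genes, 3 were expressed, and none differed by 2-fold in any of the 4 comparisons, except Hsf4 with the same FPKM sum (log2 ratio 1.29 in Nfat5-KO_600 against Nfat5-KO_300). Hsf1, the main activator of chaperone genes, had 8.99, 10.5, 9.30 and 10.9 FPKM in Scr_300, Scr_600, Nfat5-KO_300 and Nfat5-KO_600. Hsf4, the factor of the lens, had 1.01, 1.80, 0.805 and 1.69 FPKM. Hsf1 was thus slightly higher in both hypertonic groups, with log2 ratios of 0.22 in Scr and 0.23 in Nfat5-KO cells.

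The partners and kinases of the small heat shock proteins stayed within 2-fold in all comparisons. The exception with the same FPKM sum was Map1lc3b, a gene of autophagosome formation, at a log2 ratio of 1.09 in Nfat5-KO_600 against Nfat5-KO_300. The 6 BAG co-chaperones were all expressed, and Bag3, which links HSPB8 to autophagy, had 13.6, 14.8, 13.0 and 10.96 FPKM. Of 6 genes of selective autophagy, 5 were expressed, with median log2 ratios of 0.022 for the response in Scr and -0.063 in Nfat5-KO cells (0.151 and 0.179 with the same FPKM sum). Sqstm1, a cargo receptor of autophagy, had 73.4, 44.3, 68.4 and 67.3 FPKM and was lowest in Scr_600. Of 9 kinases of the pathway that phosphorylates HSPB1 and its relatives, 8 were expressed, and 7 of the 8 were at lower levels in Nfat5-KO_600 when set against Scr_600 (median log2 ratio -0.13), as were 52.2% of all genes tested. With the same FPKM sum this was 4 of the 8, with a median of -0.0075, so that no direction held. Mapkapk2, the main HSPB1 kinase, had 48.1, 41.7, 41.7 and 38.8 FPKM.

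Larger heat shock proteins showed larger differences than the members in a few genes. Of 18 heat shock response genes, 3 were at least 2-fold higher in Scr_600 than in Scr_300, none was 2-fold lower, and 13 of 18 had a ratio below 0 (median log2 ratio -0.17), as did 54.6% of all genes tested. With the same FPKM sum 4 were at least 2-fold higher, Hsph1 being the fourth, 11 of 18 had a ratio below 0 and the median was -0.041. The 3 genes without that scaling were the inducible Hsp70 genes Hspa1a and Hspa1b and the Hsp110-family gene Hspa4l, and the same 3 were lower by 2-fold or more when Nfat5-KO_600 was set against Scr_600. Hspa1b had 91.1, 231, 52.3 and 42.6 FPKM, but it shares nearly its whole sequence with Hspa1a, and the split of reads between both is uncertain. The limma log2 ratio of Hspa1b in Scr cells was 1.43, but 0.90 without the shallower Scr_300 library and 1.97 without the deeper one. That of Hspa1a was 3.00 and 3.21 in these 2 cases. Hsph1, an Hsp110 gene, had 81.7, 158, 86.6 and 84.3 FPKM, and was highest in Scr_600, as Cryab was. In Nfat5-KO cells none of the 17 genes tested reached 2-fold with hypertonicity. Their median log2 ratio was -0.24, with 13 of 17 below 0 beside 52.9% of all genes tested, and with the same FPKM sum it was -0.0031, with 9 of 17 below 0. The mitochondrial chaperonin genes Hspe1 and Hspd1 had log2 ratios of -0.76 and -0.48 in Scr and -0.95 and -0.85 in Nfat5-KO cells, the same direction as Hspb1.

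Among 8 osmoprotective genes, which include Hspa1b, Hspa4l and Nfat5, 7 were expressed. In Scr cells 5 of 7 were at least 2-fold higher in hypertonic medium (median log2 ratio 1.34), and 5 of 7 were lower by 2-fold or more when Nfat5-KO_600 was set against Scr_600 (median -1.66). Akr1b3, the aldose reductase that makes sorbitol, had 23.9, 175.2, 14.5 and 39.2 FPKM. Its log2 response was 2.87 in Scr and 1.43 in Nfat5-KO cells, beside 0.83 and 0.079 for Cryab. In Nfat5-KO_600 against Scr_600, the log2 ratio of Cryab (-0.70) lay between those of 5 of these genes (-3.23 to -1.02) and those of Nfat5 (-0.20) and the taurine transporter gene Slc6a6 (-0.033). With the same FPKM sum, 6 of 7 were at least 2-fold higher in Scr cells and 4 of 7 were lower by 2-fold or more between the hypertonic groups.

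The genes with the most similar pattern over the 4 groups were found by the distance between log2 levels centred on their mean, among the 11252 genes that averaged 1 FPKM or more. Nearest to Cryab were Dsg2, a desmosomal cadherin gene (distance 0.0877 log2 units), Lgals9 (0.0907) and Gm9836 (0.101). Nearest to Hspb2 were Tapbp (0.0487), Pak6 (0.0660) and Sipa1l2 (0.0693), and Cryab came at position 100 with a distance of 0.291. Nearest to Hspb1 were Coq3 (0.222), Hlx (0.232) and the keratin gene Krt19 (0.278), and nearest to Hspb6 were Zfp618 (0.0349), Zfp189 (0.0515) and Stambp-ps1 (0.0587). Hspb1 was farther from its nearest genes than the other members were from theirs. No other member was among the 3 nearest genes of any member. Distances over 4 group values describe these values only, and the 4 groups share the cell line and the processing.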

How the data were processed

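The authors cleaned the paired-end reads of adapter, poly-N and low-quality sequence, aligned them to GRCm38/mm10 by HISAT2, and turned HTSeq counts into RPKM with the length of each gene; the tools' versions and the strand setting are not given in the sources used here. The deposited FPKM values hold 1 value per gene and group and no value per library. Of 54839 rows, 2436 held no value, 311 were exact duplicates and 37 symbols had several rows; these were left out, which left 52015 genes.

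Log2 ratios of FPKM + 0.1 were taken for genes that reached 0.5 FPKM in either group, a gene counted as changed at 2-fold, and a single gene got a ratio only with at least 0.1 FPKM in both groups. These comparisons have no test. After the data were seen, each value was multiplied by the exon length in GENCODE M21. The products of a Scr group were sums of whole multiples of 2 steps (4 in an Nfat5-KO group), with a tolerance set by the 10 significant digits of the values. Of the low values examined (under about 40 reads), 88.1% of 9254 in Scr_300 and 87.8% of 9542 in Scr_600 came out whole. A single solution in both Scr groups was found for 49449 genes, and for 11919 of the 12929 genes that reached 0.5 FPKM in Scr cells. The steps include a scaling factor, so they do not give the raw total of a library. The solved libraries were compared by limma 3.58.1 with a trend (R 4.3.3) on log2(FPKM + 0.1) and Benjamini-Hochberg adjustment over all genes. In simulated data for this comparison (11639 genes tested), 195 of 195 genes changed 4-fold were recovered and 16 others were called. Smaller changes were not simulated and every gene got the same spread, so this does not show how often changes as in the members are found.

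The members and the lists of genes were chosen with earlier results of these data known. Named genes are the members, the genes of the lists, the 3 genes nearest in pattern to each expressed member, genes within 50 kb and Nfat5. Samples were grouped by their labels. Alternatives were pseudocounts of 1 and 0.01, 2 other scalings, other filters, a 1.5-fold limit and leaving out each Scr library. The scripts ran under Python 3.11.15 with scipy 1.17.1, pandas 2.3.3, numpy 2.4.6 and matplotlib 3.10.9.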

Additional observations from a re-analysis of the deposited data

How the results depend on the processing

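Of 80 member ratios under other pseudocounts and scalings, 78 kept their direction and their side of 2-fold. The exceptions came with scaling to the same FPKM sum, where the log2 ratio was 1.05 for Hspb2 (Scr_600 against Scr_300) and 1.06 for Hspb6 (Nfat5-KO_600 against Nfat5-KO_300); this scaling moved the median of all genes by 0.24 in the latter comparison, by 0.1285 in the former and by 0.1264 between the hypertonic groups.

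Leaving out 1 Scr library at a time, the member ratios ranged as follows. In Scr_600 against Scr_300 they were 0.56 to 1.17 for Cryab, -1.72 to -0.78 for Hspb1, 0.53 to 1.21 for Hspb2 and 0.21 to 0.32 for Hspb6. In Nfat5-KO_300 against Scr_300 they were -0.22 to 0.39 for Cryab and -0.56 to 0.38 for Hspb1, and in Nfat5-KO_600 against Scr_600 they were -1.04 to -0.37 for Hspb2. The difference of the responses was -1.09 to -0.48 for Cryab and -1.02 to -0.071 for Hspb1. The limma ratios of the members kept their direction in all 8 alternatives and stayed above an adjusted p of 0.05 (limma; 0.137 to 0.512 for Cryab, 0.130 to 0.346 for Hspb1, 0.121 to 0.419 for Hspb2, 0.271 to 0.695 for Hspb6). The genes called by limma numbered 111 higher and 73 lower, 0 and 0 without a filter, and 0 to 14 higher and 0 to 2 lower without 1 library; a lone library of a group is then assumed to vary like the other group. At an unadjusted p under 0.05 there were 3225 genes without a filter.

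The counts of genes past 2-fold, given as higher and lower, depended on the pseudocount and the filter. For Nfat5-KO_300 against Scr_300 (220 and 310) they were 48 and 87 with a pseudocount of 1, 581 and 647 without a filter, 106 and 153 at a mean of at least 1 FPKM, and 670 and 789 at 1.5-fold. For Nfat5-KO_600 against Scr_600 (491 and 481) they were 135 and 203, 1086 and 798, 259 and 289, and 1285 and 1233 in the same order. For Scr_600 against Scr_300 (622 and 370) they were 251 and 124, 1098 and 737, 352 and 201, and 1345 and 1165. For Nfat5-KO_600 against Nfat5-KO_300 (812 and 534) they were 259 and 230 with a pseudocount of 1, 1422 higher without a filter, 467 higher at a mean of at least 1 FPKM, 1836 and 1792 at 1.5-fold, and 1374 and 326 with the same FPKM sum. Other filters and folds change how many genes could be called; for the rest the cause was not tested. Of 168 medians of lists, 159 kept their sign. With the same FPKM sum, 80.8% of the genes past 2-fold in Nfat5-KO_600 against Nfat5-KO_300 were higher, against 60.3%, and 61.25% against 50.5% in Nfat5-KO_600 against Scr_600.

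No paired analysis was possible because the Scr_300 and Scr_600 libraries share no replicate number and the Nfat5-KO libraries could not be solved for most genes. Few reads limit Hspb8 (at most 5 in a group) and Hspb9 (22 in Scr_300).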
